A study of Mus musculus with 7 samples.

Results

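Mature miRNAs of the miR-199 and miR-214 hairpins were represented on the mouse array by mmu-miR-199a-3p, mmu-miR-199a-5p, mmu-miR-199b* and mmu-miR-214, written below without the prefix. They were selected by their names on the array. The rule used no signal, but these miRNAs were chosen with earlier results of these data known. They make up 4 of the 696 mouse miRNAs on the array and are read by 8 of its 1937 probes. The study compared miRNA expression in mouse kidneys collected at day 28 after either of 2 operations, Unilateral Ureteral Obstruction (UUO), in which the left ureter is ligated and the kidney scars, and a sham operation, in which the ureter was located and not tied. All animals were male C57BL/6 mice of 9 to 12 weeks, and each kidney RNA was labelled with Cy3 and hybridized to its own 1-colour Agilent miRNA array. The 7 arrays analysed here carry the group label treated (replicates 1, 3 and 4) or non-treated (replicates 1 to 4), with no further allele or agent in either group. The groups were described as 4 mice each, but nothing in the labels ties an array to an animal, so p-values measure the spread between these arrays.

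Which label stands for the obstructed kidney is not settled by the deposited record. It describes both operations, numbers the treated mice with an S and the non-treated mice with a C, and names sham kidneys in its title, so that S may stand for sham. Every direction below is therefore the signal on arrays labelled treated minus the signal on arrays labelled non-treated. The record gives a kit for fixed tissue for the RNA of these mice, whereas the study's methods give another kit for tissue and keep that one for fixed human samples, so how the RNA was extracted is not settled either.

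A hairpin precursor is cut into a short duplex, and a strand from either arm (5p from the first arm, 3p from the second) can be loaded into an Argonaute protein. The loaded miRNA pairs with messenger RNAs mainly through its seed, bases 2 to 8 counted from the 5′ end, and lowers their stability and translation. MiR-199a and miR-214 are carried by the long noncoding RNA Dnm3os, which is transcribed opposite to the dynamin gene Dnm3 and is active in mesenchymal cells such as fibroblasts and pericytes, the cells that lay down matrix in a scarring kidney. In whole kidney RNA the cell of origin cannot be read, and fewer cells of a type and less RNA per cell cannot be told apart.

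The sequences show how many genomic sources the array signals can have. Coordinates and sequences are those of RefSeq on mouse build GRCm38.p6, in which 3 of the 4 miRNAs were matched by name. Mir199a-2 (chr1:162217814-162217923, plus strand) and Mir214 (chr1:162223368-162223477, plus strand) lie 5444 bases apart, both inside Dnm3os (chr1:162217623-162225550, plus strand) and inside the span of Dnm3 on the minus strand. Mir199a-1 (chr9:21496495-21496564, minus strand) lies within Dnm2, and Mir199b (chr2:32318460-32318569, plus strand) within Dnm1, each on the strand opposite to its dynamin gene. The mature sequences are given 5′ to 3′ with the seed in capitals.
miR-199a-3p: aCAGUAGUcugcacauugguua
miR-199a-5p: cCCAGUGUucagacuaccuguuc
miR-214: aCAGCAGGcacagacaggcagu

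MiR-199a-3p and miR-199a-5p come from opposite arms of the same hairpins and have different seeds. Their seeds also differ from that of miR-214, so that the 3 sequences carry 3 seeds. Among the 1679 mature mouse names of the table, the seed of miR-199a-3p was shared by miR-199b-3p, whose sequence is identical, the seed of miR-199a-5p by no other name, and that of miR-214 by miR-761. The hairpins below are shown because they hold the same arms at 3 loci, with both mature miR-199 arms in capitals.
Mir199a-2: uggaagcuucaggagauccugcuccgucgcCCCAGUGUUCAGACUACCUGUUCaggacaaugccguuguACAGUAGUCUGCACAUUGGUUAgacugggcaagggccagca
Mir199a-1: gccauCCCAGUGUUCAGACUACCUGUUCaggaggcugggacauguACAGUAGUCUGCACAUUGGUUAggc
Mir199b: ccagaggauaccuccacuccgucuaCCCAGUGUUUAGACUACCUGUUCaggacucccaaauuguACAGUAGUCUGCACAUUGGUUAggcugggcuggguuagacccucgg

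The 22 bases of miR-199a-3p were found without a mismatch in all 3 hairpins, so its signal sums what chromosomes 1, 9 and 2 produce. The 23 bases of miR-199a-5p were found without a mismatch in Mir199a-2 and Mir199a-1. In Mir199b they matched at 22 of 23 bases, with the substitution C10U (positions counted from 1 at the 5′ end of miR-199a-5p), which lies outside the seed. The name miR-199b* was given to this arm of Mir199b. The share of each of these signals that a near-identical sequence could give by cross-hybridization was not tested. MiR-214 was found in its own hairpin alone among the 4 hairpins searched.

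Before the miRNAs are described, 1 array needs mention. Before scaling, the 186 miRNAs detected on all arrays averaged 7.24 ± 0.40 (SD, n = 4) in log2 signal for the non-treated label and 6.09 ± 0.32 (SD, n = 3) for the treated label, and each array was scaled by this average. Non-treated 3 stood apart at 6.65, below 7.40 to 7.52 on the other arrays of its label. Results that rest on it are given with and without it. The software called 232 to 282 miRNAs detected on arrays labelled non-treated and 193 to 214 on those labelled treated, and no spot was saturated. As markers of kidney, 8 of the 9 tubule miRNAs listed were detected on every array and miR-215 on none.

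All 4 miRNAs were detected on all 7 arrays, and each was lower on the arrays labelled treated than on those labelled non-treated, by 4.71- to 5.87-fold. The study gives its changes as obstructed over sham kidneys, and its direction for these miRNAs is opposite to the one that the deposited labels give. Signals below are log2 intensities summed over the probes of a miRNA and scaled by array.

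MiR-199a-3p is the arm that all 3 miR-199 hairpins share. Its log2 signal was 10.74, 10.63, 10.72 and 10.88 on non-treated 1 to 4, and 8.18, 8.24 and 8.14 on treated 1, 3 and 4. The groups did not overlap, and the spread within a label was small beside the gap of 2.39 between the lowest non-treated and the highest treated array. The means were 10.74 ± 0.10 (SD, n = 4) and 8.19 ± 0.054 (SD, n = 3), a log2 fold change of -2.55 (SE 0.068, limma adjusted p = 1.49e-06). On the linear scale the signal was 5.87-fold higher on the arrays labelled non-treated (95% interval 5.25 to 6.58).

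MiR-199a-5p is the opposite arm of the miR-199a hairpins and is known for targeting, among others, caveolin-1 in lung fibroblasts. Its log2 signal was 8.49, 8.20, 8.23 and 8.47 on non-treated 1 to 4, and 5.96, 5.89 and 5.96 on treated 1, 3 and 4. The treated arrays lay close together, and non-treated 1 and 4 lay above non-treated 2 and 3. Its log2 fold change was -2.41 (SE 0.090, limma adjusted p = 1.52e-06), or 5.31-fold higher on the arrays labelled non-treated (95% interval 4.58 to 6.17).

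MiR-199b*, the 5p arm of the hairpin on chromosome 2, comes from a locus outside Dnm3os. Its log2 signal was 9.08, 8.99, 8.47 and 9.13 on non-treated 1 to 4, and 6.67, 6.67 and 6.71 on treated 1, 3 and 4. Non-treated 3 was low among the arrays of its label but still 1.76 above the highest treated array. The log2 fold change was -2.24 (SE 0.16, limma adjusted p = 2.28e-05), or 4.71-fold higher on the arrays labelled non-treated (95% interval 3.61 to 6.16). Without non-treated 3 the log2 fold change was -2.41 (limma adjusted p = 2.53e-06).

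MiR-214 lies downstream of miR-199a-2 in the Dnm3os transcript. Its log2 signal was 8.15, 7.90, 8.23 and 8.13 on non-treated 1 to 4, and 5.52, 5.58 and 5.67 on treated 1, 3 and 4. The lowest non-treated array, replicate 2, was 2.23 above the highest treated array. The log2 fold change was -2.51 (SE 0.088, limma adjusted p = 1.52e-06), or 5.70-fold higher on the arrays labelled non-treated (95% interval 4.92 to 6.60).

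**Figure D1:**
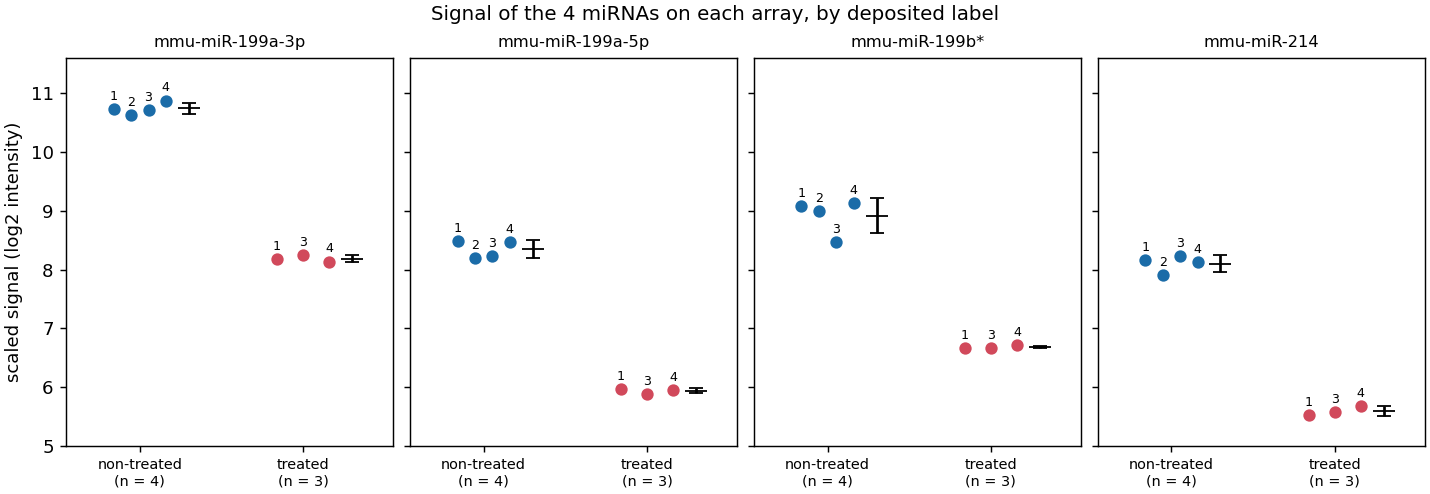
Scaled signal (log2 intensity) of the 4 miRNAs on each array, with points numbered by replicate and grouped by deposited label; bars are the mean and SD (n = 4 and n = 3). In every panel the 3 treated arrays lie below all 4 labelled non-treated, and for miR-199b* non-treated 3 lies at 8.47, below the others of its label.

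The plot of signals by array shows that the 2 labels were separated for each of the 4 miRNAs by more than the spread within either label. As a check that uses no model, an exact 2-sided permutation test over the 35 splits of the arrays gave p = 0.0571 for each, the smallest p that 3 against 4 arrays allow. All arrays lay on 1 slide and were read in 1 scan, so slide and scan could not differ between labels. Within row 1 of the slide (non-treated 1 and 2, treated 1) the log2 fold changes were -2.50 (miR-199a-3p), -2.38 (miR-199a-5p), -2.37 (miR-199b*) and -2.51 (miR-214), and within row 2 (the other 4 arrays) -2.61, -2.43, -2.11 and -2.55. The separation is also visible before scaling, where the treated arrays were dimmer as a whole. The miRNAs detected on all arrays averaged 7.24 in log2 signal for the non-treated label and 6.09 for the treated label. Unscaled differences include this one. Agilent's own summed signal of miR-199a-3p was 1721, 1770, 1012 and 1932 on non-treated 1 to 4, and 114.6, 155.0 and 96.0 on treated 1, 3 and 4. For miR-214 the same signal was 286.7, 266.5, 180.3 and 286.9, and 18.1, 24.5 and 17.4. Non-treated 3 was the dimmest of its label for both, as it was over all miRNAs.

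The 4 miRNAs were tested together with all 236 miRNAs that were detected on every array of at least 1 label. Of these, 130 passed the threshold of an adjusted p below 0.01, with 75 lower and 55 higher for the treated label. All 4 of the 4 miRNAs were lower, where 31.8% of all miRNAs tested were lower past the threshold and 38.1% were lower with no overlap between the labels. Their median log2 fold change was -2.46, against -0.084 over all miRNAs tested. The study's own list of differing miRNAs holds all 4, chosen on these kidneys, so this count is not independent evidence of their direction.

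**Figure D2:**
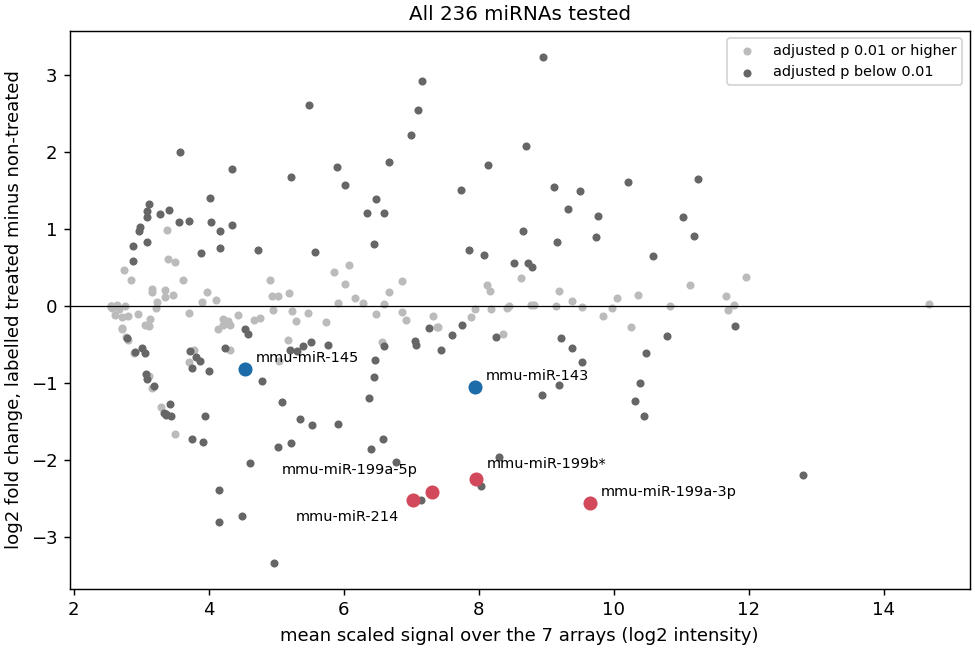
Log2 fold change (labelled treated minus non-treated) against mean scaled signal (log2 intensity) for the 236 miRNAs tested, one point each; dark points have a limma adjusted p below 0.01. The 4 miRNAs (red) lie between -2.55 and -2.24 at medium to high signal, below miR-143 and miR-145 of smooth muscle and pericytes (blue, -1.05 and -0.82).

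In the plot of all miRNAs, the 4 miRNAs lie among the larger falls. Scaling sets where no change lies. Without any scaling between arrays the log2 fold changes were -3.71 (miR-199a-3p), -3.57 (miR-199a-5p), -3.39 (miR-199b*) and -3.67 (miR-214). The median over the 186 miRNAs detected on all arrays was then -1.18. With median spot signals and a normexp background correction with an offset of 50 in place of the processed signal, the log2 fold changes were -2.55, -1.40, -1.65 and -1.28 in the same order, and all 4 remained past the threshold.

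Each miRNA was read by 2 probes, and each probe was printed on 10 spots per array. In a fit per probe, 8 of 8 probes were lower past the threshold, where 25.7% of the 366 probes tested were. That share includes probes at the floor on every array, which could not pass. A_54_P2378 of miR-199a-5p entered the test only through the non-treated label. It was at the floor on all arrays labelled treated, so the size of its change is not measured. The probes of miR-199a-3p gave log2 fold changes of -2.58 (A_54_P2380) and -2.54 (A_54_P2381), and those of miR-214 gave -2.48 (A_54_P2619) and -2.52 (A_54_P2620). The probes of miR-199b* gave -2.22 (A_54_P3538) and -2.24 (A_54_P3539). Thus the probes of these 3 miRNAs lay within each other's 95% intervals.

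The exception was miR-199a-5p, whose A_54_P2377 gave -2.39 and whose A_54_P2378 gave -1.93. A_54_P2378 was not well above background on any of the 3 arrays labelled treated, so its value there is only a bound. Its mean log2 signal was 5.17 on the arrays labelled non-treated and 2.56 as measured on those labelled treated. Taken against the lowest signal well above background on each treated array, it was at least 4.66-fold higher on the arrays labelled non-treated. The log2 ratio between the probes of a miRNA changed by -0.040 (miR-199a-3p), 0.026 (miR-199b*) and 0.037 (miR-214) from non-treated to treated. For miR-199a-5p it changed by 0.22, but this uses signals of A_54_P2378 that were not well above background on the treated arrays. That value and its p are therefore no measure of how these probes agree. None of the 4 changes reached the smallest p of the exact permutation test (p from 0.171 to 0.914, adjusted over 4 pairs from 0.686 to 0.914).

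**Figure D3:**
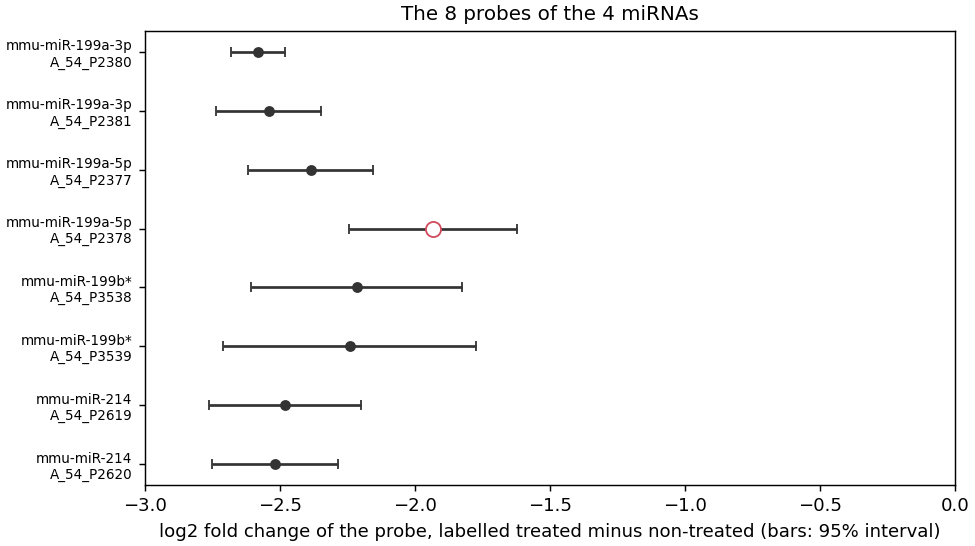
Log2 fold change (labelled treated minus non-treated) of the 8 probes from the limma fit per probe over 7 arrays; bars are 95% intervals. The open red circle marks A_54_P2378 of miR-199a-5p (-1.93), which was at the floor on all 3 treated arrays, whereas the other probes lie between -2.58 and -2.22.

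The plot of the probes shows 7 intervals that overlap broadly and the floored probe nearer to 0. Since the signal of miR-199a-5p is dominated by its brighter probe A_54_P2377, the brightest probes alone gave nearly the same fold changes for all 4 miRNAs.

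Whether the 4 miRNAs changed by the same amount was compared with ratios taken within an array, which do not depend on scaling. The miR-214 hairpin lies within Dnm3os, whereas miR-199a-3p can also come from hairpins outside it. The ratio of miR-199a-3p over miR-214 had log2 values of 2.59, 2.73, 2.49 and 2.75 on non-treated 1 to 4, and 2.66, 2.66 and 2.46 on treated 1, 3 and 4. The labels overlapped, and the change was -0.044 (95% interval -0.28 to 0.19, exact permutation p = 0.629). The ratio of miR-199a-5p over miR-214 was 0.34, 0.29, -0.0015 and 0.34 on non-treated 1 to 4, and 0.44, 0.30 and 0.28 on treated 1, 3 and 4. Here non-treated 3 was low, the labels overlapped, and the change was 0.10 (95% interval -0.17 to 0.37, exact permutation p = 0.514), or 0.020 without non-treated 3.

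The ratio of the arms, miR-199a-3p over miR-199a-5p, was 2.25, 2.44, 2.49 and 2.41 on non-treated 1 to 4, and 2.22, 2.36 and 2.18 on treated 1, 3 and 4. These values overlapped, and the change was -0.15 (95% interval -0.34 to 0.051, exact permutation p = 0.114). With the main signal, the intervals of these 3 pairs reach at most 0.37 in either direction on the log2 scale. This is small beside falls of over 2.4, but does not show that the changes were equal. The intervals measure the spread between arrays and not the choice of signal. Levels of different miRNAs are not compared here, since their probes bind with different strength.

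The pairs with miR-199b* gave the larger changes. The ratio of miR-199a-3p over miR-199b* was 1.66, 1.64, 2.25 and 1.75 on non-treated 1 to 4, and 1.52, 1.58 and 1.43 on treated 1, 3 and 4. It was the only pair of the 6 whose labels did not overlap, with a change of -0.32 (95% interval -0.76 to 0.13, exact permutation p = 0.0571, adjusted over 6 pairs 0.343). Non-treated 3 was high for this ratio, and without it the change was -0.18 (exact permutation p = 0.10, the smallest that 3 against 3 arrays allow). The ratio of miR-199a-5p over miR-199b* changed by -0.17 (exact permutation p = 0.286, adjusted 0.429) and that of miR-199b* over miR-214 by 0.27 (95% interval -0.32 to 0.87, exact permutation p = 0.171, adjusted 0.343). Without non-treated 3 these changes were -0.062 and 0.083.

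**Figure D4:**
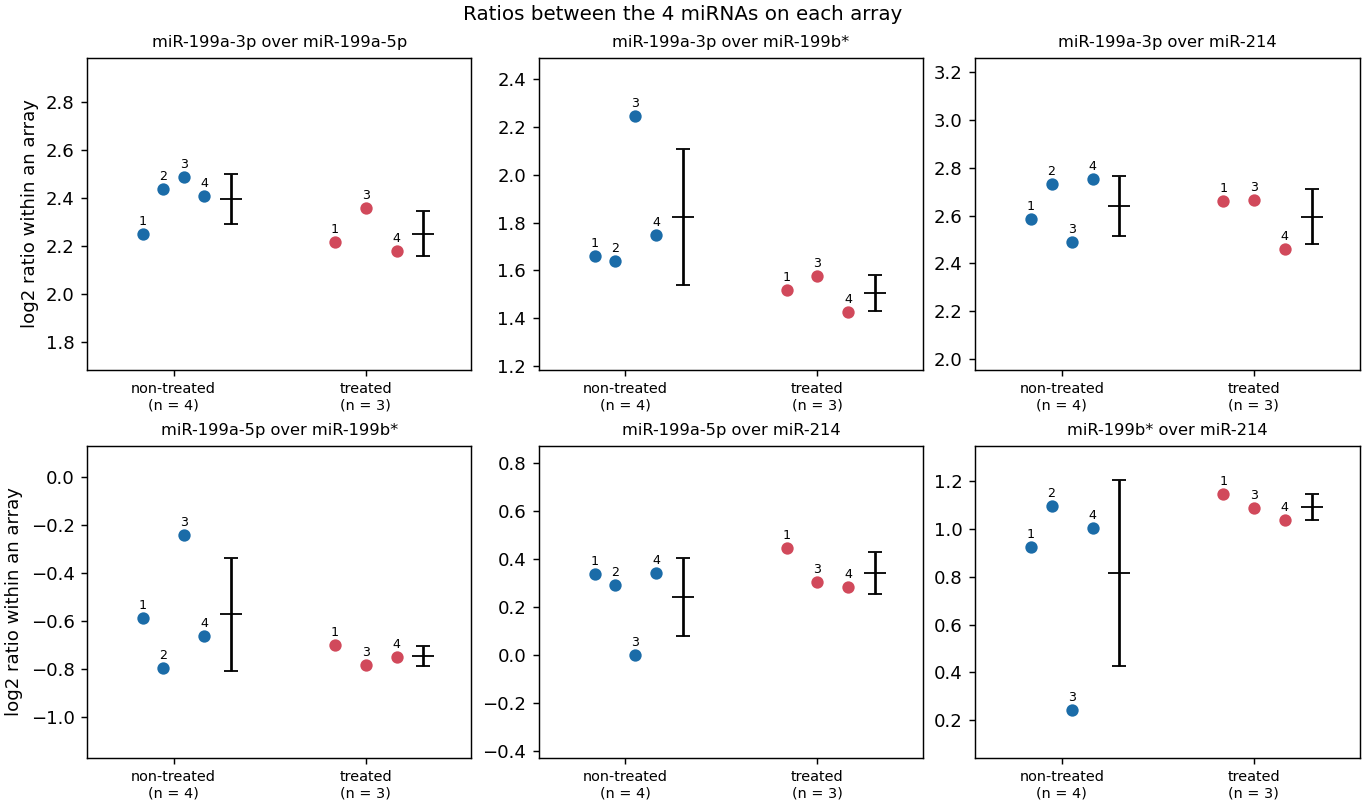
Log2 ratio within an array for the 6 pairs of the 4 miRNAs, with points numbered by replicate and grouped by deposited label; bars are the mean and SD (n = 4 and n = 3), and every panel spans the same height. Labels overlap in 5 of 6 pairs, and non-treated 3 lies apart in the pairs with miR-199b* and in miR-199a-5p over miR-214 (-0.0015).

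With 3 against 4 arrays no pair could reach an exact p below 0.0571, so these tests do not show that the 4 miRNAs changed alike. In the plot of ratios, the widest spread came from non-treated 3. With normexp on median signals the ratios of miR-199a-3p over the 3 others changed by -1.14 (miR-199a-5p), -0.89 (miR-199b*) and -1.26 (miR-214), so these changes depend on the signal used. That setting adds an offset of 50 to each probe. On the treated arrays the unscaled summed processed signal was 26.3 to 38.3 for miR-214 and 144.9 to 242.5 for miR-199a-3p. The part of the offset in these changes was not tested.

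The weaker products of these hairpins gave little signal. MiR-214*, the other strand of the miR-214 hairpin, was called detected on 3 arrays, non-treated 1, 2 and 4. Since neither label had it on all its arrays, it was not tested, and its scaled signal was below the floor of 5.85 throughout. MiR-761, which shares the seed of miR-214, was detected on 0 of 7 arrays. MiR-199b was not found on the array under that name.

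MiR-143 and miR-145, which are transcribed together and mark smooth muscle and pericytes, were compared as miRNAs of neighbouring mesenchymal cells. MiR-143 had log2 signals of 8.40, 8.56, 8.26 and 8.34 on non-treated 1 to 4, and 7.35, 7.20 and 7.47 on treated 1, 3 and 4, with no overlap. Its log2 fold change was -1.05 (SE 0.094, limma adjusted p = 6.36e-05), and that of miR-145 was -0.82 (SE 0.070, limma adjusted p = 5.18e-05). Of the list of 4 such miRNAs, 2 were tested and both were lower past the threshold, where 31.8% of all miRNAs tested were. MiR-145* was detected on no array, and miR-143* was not on the array under that name.

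Both fell, as the miR-199 and miR-214 miRNAs did, with smaller log2 fold changes, except that miR-145 was at 0.030 with normexp on median signals. In a comparison chosen after the values were seen, the ratio of each of the 4 over miR-143 or miR-145 within an array was lower on the arrays labelled treated in all 8 pairs, by 1.19 to 1.73 on the log2 scale. In each pair the labels did not overlap and the exact permutation test gave its smallest p (p = 0.0571, and 0.0571 after adjustment over 8 pairs). Since the pairs were chosen on fold changes already seen, this p is no independent evidence. With normexp on median signals the 8 changes ran from -2.73 (miR-199a-3p over miR-145) to -0.35 (miR-214 over miR-143), again without overlap. The sizes of these changes therefore depend on the signal used. With the main signal the ratio of miR-214 over miR-143, for example, averaged -0.29 ± 0.27 (SD, n = 4) for the non-treated label and -1.75 ± 0.11 (SD, n = 3) for the treated label.

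The miRNAs linked to transforming growth factor beta in kidney fibrosis moved in both directions. Of 10 listed, 7 were tested, of which 5 rose and 1 fell from the non-treated to the treated label, with a median log2 fold change of 0.90 (-0.25 without scaling). Over all 236 miRNAs tested, 55 rose and 75 fell past the threshold. The list shares 3 miRNAs with the tubule list below. MiR-21, induced in many injured tissues, was lower with a log2 fold change of -2.18 (SE 0.13, limma adjusted p = 7.23e-06). MiR-29b, a repressor of collagen messages, was higher at 1.18 (SE 0.12, limma adjusted p = 0.000113), as was miR-192 at 3.24 (SE 0.22, limma adjusted p = 1.86e-05). Thus miR-21 had the direction of miR-199 and miR-214. Without scaling it was at -3.34, where the median over the 186 miRNAs detected on all arrays was -1.18. MiR-29b had the opposite direction in the main setting, but was at 0.019 without scaling.

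Markers of other cell types moved in different directions, and those of leukocytes moved with the 4 miRNAs. Beside the list counts given here and below, 75 of the 236 miRNAs tested were lower and 55 higher past the threshold. All 6 leukocyte miRNAs were lower on the arrays labelled treated (median log2 fold change -1.89), with a summed scaled signal of 1283 to 1668 on non-treated and 328.3 to 354.1 on treated arrays. Among these, miR-223 of myeloid cells changed by -2.33 (SE 0.12), miR-142-3p of blood cells in general by -1.95 (SE 0.17) and miR-142-5p by -1.78 (SE 0.29), with limma adjusted p of 4.62e-06, 5.73e-05 and 0.0013. All 6 were detected on every array, although on the treated arrays no miR-150 probe was well above background.

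Of the 9 tubule miRNAs, 8 were tested, of which 5 were higher, 1 was lower and 2 did not pass, with a median log2 fold change of 0.87 (-0.29 without scaling). Their summed scaled signal was 1809 to 2374 on non-treated and 5014 to 5261 on treated arrays, and miR-215 was detected on none. MiR-192 (3.24) and miR-194 (2.92, SE 0.14, limma adjusted p = 4.01e-06), made from shared transcripts of the tubule, rose most among those named. Both red cell miRNAs tested, miR-451 at 1.65 (SE 0.24, limma adjusted p = 0.000793) and miR-144 at 2.61 (SE 0.27, limma adjusted p = 0.000127), were higher, with a summed signal of 1079 to 2329 and 4615 to 5118. The third red cell marker, miR-486, was not on the array under that name.

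Endothelial miR-126-3p (-0.0018, SE 0.053, limma adjusted p = 0.99) and miR-126-5p (0.076, SE 0.089, limma adjusted p = 0.492) did not pass the threshold, and their summed signal was 1769 to 1955 and 1780 to 1899. Without scaling between arrays their log2 fold changes were -1.16 and -1.08, so their lack of change depends on the scaling. Of the muscle miRNAs, miR-1 (-0.72, limma adjusted p = 0.0658) and miR-133b (-0.91, limma adjusted p = 0.0699) did not pass. No probe of miR-133b was well above background on any treated array, so its fitted -0.91 is no measured size. The summed signal of the list was 27.2 to 60.6 and 27.3 to 28.0, in which signals below the floor of 5.85 were counted at the floor. The part that cell composition, as read by these markers, had in the change of miR-199 and miR-214 was not tested.

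The miRNAs whose pattern over the 7 arrays was most like that of the 4 were sought among the 182 others detected on all arrays, by the root mean square (RMS) difference of log2 signals centred on each miRNA's own mean. They were miR-223 (RMS difference 0.096), miR-342-3p (0.15), miR-31 (0.16), miR-21 (0.20) and miR-183 (0.21), against a median of 1.20 over the 182. The 4 miRNAs themselves differed from their own mean pattern by 0.039 (miR-199a-5p) to 0.18 (miR-199b*). MiR-223 and miR-342-3p are miRNAs of blood cells, miR-21 is found in most cell types, and miR-183 belongs to a cluster known from sensory cells.

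MiR-223, the closest, had log2 signals of 9.14, 8.84, 8.93 and 9.21 on non-treated 1 to 4, and 6.62, 6.60 and 6.87 on treated 1, 3 and 4. As for miR-199a-5p, non-treated 1 and 4 were above non-treated 2 and 3, and the labels did not overlap. The log2 fold changes of miR-342-3p and miR-21 were -2.52 and -2.18. No probe of miR-31 was well above background on any treated array, so its fitted -2.72 is no measured size, and its brighter probe was at least 4.46-fold higher on the arrays labelled non-treated. For miR-183, fitted at -2.04, a probe was well above background on 1 of the 3 treated arrays. The RMS difference includes the size of the change between labels, so miRNAs that fell by similar amounts rank as close.

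**Figure D5:**
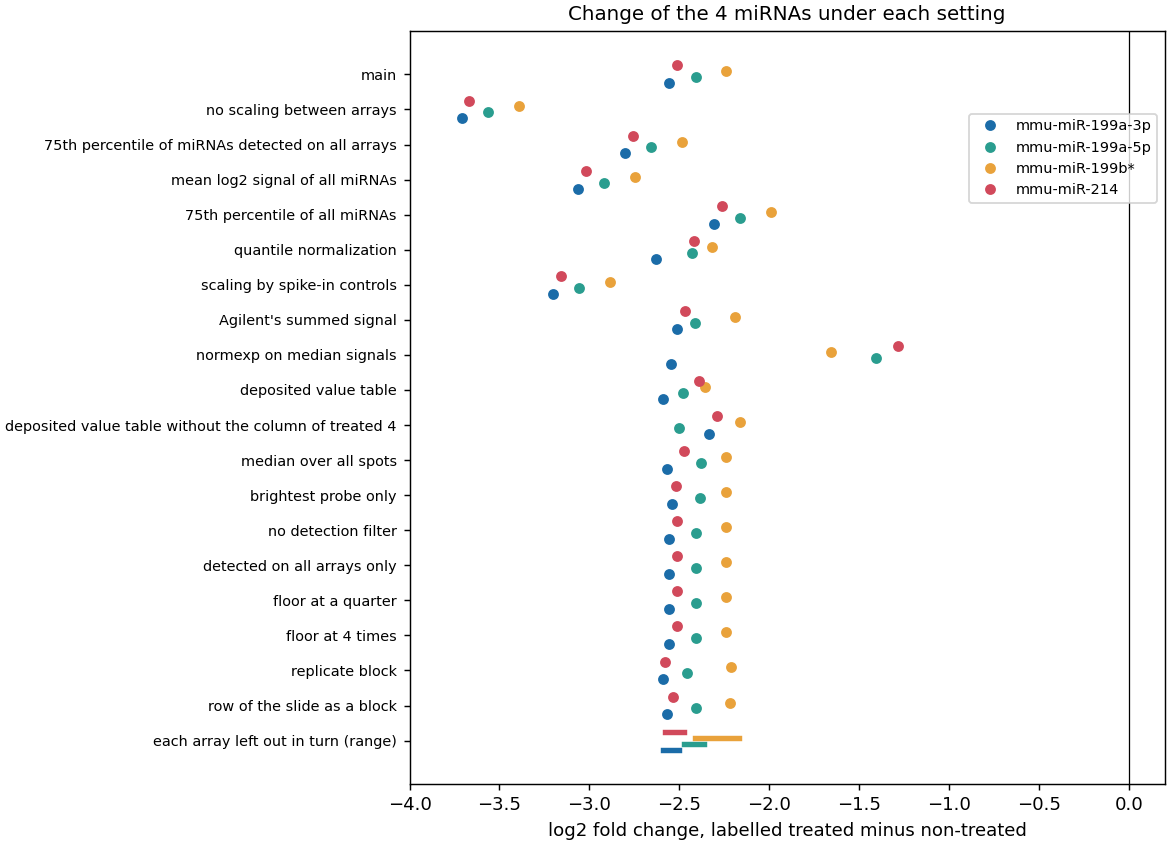
Log2 fold change (labelled treated minus non-treated) of the 4 miRNAs under the main setting, each alternative scaling, signal column, probe rule, filter and floor, the replicate block, a block for slide rows and, as bars in the lowest row, the range with each array left out in turn. All values lie below 0, from -3.71 to -1.28, and the values nearest 0 for miR-214 and miR-199a-5p are those with normexp on median signals.

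The plot of settings shows that leaving out any 1 array moved the log2 fold changes little, to between -2.59 and -2.50 for miR-199a-3p, -2.47 and -2.36 for miR-199a-5p, -2.41 and -2.17 for miR-199b*, and -2.58 and -2.47 for miR-214. Scaling moved them more, together with all other miRNAs. Among the 186 miRNAs detected on all arrays, miR-199a-3p ranked 2, miR-214 4, miR-199a-5p 5 and miR-199b* 7 from the largest fall, and 1, 4, 3 and 8 after quantile normalization. The other scalings shift all miRNAs alike and cannot change these ranks. Rank 1 in the main setting was miR-31, for which only a bound was measured.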

How the data were processed

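Total RNA of whole kidneys was hybridized to 7 arrays (Agilent, 1 colour), of which 4 carry the label non-treated and 3 the label treated. The files that the authors deposited come from Agilent Feature Extraction 10.7.3.1 (version per the submitters' processing notes). They give, for each of 13920 spots, a linear, background-subtracted intensity that is not normalized between arrays and flags for outlier spots and detection. A table of values was deposited too, which holds the processed intensity of the first spot of each probe for 6 arrays (relative tolerance 1e-05) and the error estimate of that intensity for treated 4, with no log, centring or scaling; its column medians were 0.420, 0.509, 0.447 and 0.321 for non-treated 1 to 4 and 0.311, 0.263 and 1.00 for treated 1, 3 and 4. It was used as an alternative only. Arrays have no depth in reads, and their number limits the precision.

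From these intensities, spots without outlier flags were averaged per probe and summed per miRNA. Signals were divided by the mean signal (on the log2 scale) of the 186 miRNAs detected on all arrays, after the methods' normalization to the array mean, raised to a floor of 5.85 (9.44 per probe) and log2 transformed. The labels were compared with limma (3.58.1, R 4.3.3) over the miRNAs that were detected throughout 1 label or both, with Benjamini-Hochberg adjusted p below 0.01; the steps were tested on simulated data. Ratios within an array were compared by exact 2-sided permutation tests (2 times the smaller tail, 35 splits). Intervals are at 95%. A probe not well above background on any array of a label has only a bound there. The arrays of a label differed by at least 1.34 times the SD expected from their spots and were counted separately. This does not show that each array is a separate animal. Alternatives covered scaling, signal column, spots, probes, detection filter, floor, test, threshold, block and each array left out; the ratios over miR-143 and miR-145, the bounds and a block for slide rows were added after seeing the data. Members and lists were chosen with earlier results of these data known. Named are the 4 miRNAs and their probes, the other strands, miRNAs sharing a seed, up to 3 miRNAs of each list in its own order and the 5 nearest patterns. Further list members were named where they were not detected or not on the array, and miR-133b and miR-150 after their values were seen. The human, serum and PCR measurements of the study were not analysed here.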

Additional observations from a re-analysis of the deposited data

Results flagged for a closer look

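Non-treated 3 was far from the other arrays of its label in 2 of the 11 measures examined in the group of 4. Averaged over the 186 miRNAs that all arrays detected, its log2 signal was 6.65, against 7.40 to 7.52 on non-treated 1, 2 and 4. Its log2 ratio of miR-199a-5p over miR-214 was -0.0015, against 0.29 to 0.34 on the same 3 arrays. Chance gives such a gap in about 5% of groups. The groups of 3 arrays were not examined in this way.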

How the results depend on the processing

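The 4 miRNAs were lower and past the threshold under all 28 alternatives, with log2 fold changes from -3.71 to -2.31 (miR-199a-3p), -3.57 to -1.40 (miR-199a-5p), -3.39 to -1.65 (miR-199b*) and -3.67 to -1.28 (miR-214). Of the 8 probes, 7 or 8 passed under the 20 alternatives run per probe. Scaling moved the median change of the 186 miRNAs detected on all arrays from -0.022 to between -1.18 (no scaling) and 0.23 (75th percentile over all miRNAs). The counts over all miRNAs moved more. They were 7 higher and 162 lower without scaling, 36 and 121 with the mean of all miRNAs, 36 and 153 with spike-in controls, and, with the 75th percentile over all miRNAs, 75 and 47. The total was 59 (25 higher, 34 lower) with normexp, 56 (27 and 29) with the deposited value table, 82 (44 lower) with the floor at 4 times, which leaves fewer changes between dim signals, and 72 (35 and 37) with Bonferroni adjustment. Without the column of treated 4, the deposited table gave 47 lower. With each array left out, 112 to 146 passed.

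Signs changed for miR-145 and for changes of ratios. With normexp, miR-145 was at 0.030, and the ratio changes were 0.25 (miR-199a-5p over miR-199b*), -0.12 (miR-199a-5p over miR-214) and -0.37 (miR-199b* over miR-214). With the deposited table, miR-199a-5p over miR-214 changed by -0.088, and without its column of treated 4 by -0.21, with miR-199a-3p over miR-199a-5p at 0.17. The cause was not tested. With each array left out, miR-199a-3p over miR-214 changed by -0.094 to 0.023, the positive value without treated 4. MiR-145 missed the threshold in the deposited table (-0.25, and -0.83 without treated 4), and with normexp miR-31 (-0.051) and miR-183 (-0.0074) did. With the replicate number as a block, over numbers 1, 3 and 4, the log2 fold changes were -2.59, -2.46, -2.21 and -2.58 in the order above, 108 miRNAs passed (51 higher, 57 lower) and 7 of the 8 probes did. Deviations of same-numbered arrays correlated at -0.013, -0.021 and 0.19, so the numbers were not taken as pairs.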
